A study of Macaca mulatta with 8 samples.

Results

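The regions described here are stretches of open chromatin that the authors called at post-conceptional day 80 and at no other stage, away from gene starts, in cultured cortex cells of the rhesus macaque. Their table of merged ATAC-seq regions names the peaks in each region, and each peak name carries the code of the stage it was called in. Autosomal regions were taken that held an E80 peak, held no peak of E50, E60 or E85, and did not reach into the 1000 bp on either side of a protein-coding or lncRNA transcription start. They number 8840 of the 53687 distal autosomal regions with a peak of any stage (16.5%), and of 112696 regions in the table. Of these, 8823 held 1 E80 peak and 17 held 2. The regions nearest the limit lay 1001, 1003 and 1004 bp from a start, and E80-alone regions just inside it, counted as promoters, lay 994, 997 and 1000 bp from one, at TNS3, at SLC7A7 and at a lncRNA gene.

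The libraries came from 4 stages, E50, E60, E80 and E85, at days 50, 60, 80 and 85. At each stage, cryopreserved cortical tissue was dissociated and grown as a flat culture on laminin, in a medium with FGF2, EGF and BDNF that enriches progenitors, with the CEPT survival cocktail at plating. Each stage gave 1 culture and 2 technical libraries, made by Omni-ATAC, in which Tn5 transposase cuts open DNA. A stage is a single culture here, so differences between stages were not checked in replicates. Stage calls are the authors' yes or no per region, so a region missing from a stage may have been open there below the calling threshold. In a bulk culture, fewer cells of a type and a less open region per cell cannot be told apart. The E80 set had 60278 peaks, against 19833 at E50, 61956 at E60 and 30701 at E85. E60 was therefore the stage of like size, and the 10125 distal regions called at E60 alone (18.9% of the 53687) were the main comparison.

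Among marker genes with a distal region, the promoters of 14 of 14 radial glia genes were called at E80, PAX6, SOX2 and HES5 among them, and of 8 of 10 pan-neuronal genes. The same count was 4 of 9 for endothelium (CLDN5, ENG, ERG and KDR), 3 of 6 for mesenchyme and mural cells and 0 of 4 for microglia, and at E60 it was 14, 8, 5, 5 and 0 in the same order of lists. At E80 it was 12 of 12 for outer radial glia and 3 of 4 for intermediate progenitors. Deep-layer neurons had 6 of 8, upper-layer neurons 8 of 9, interneurons 9 of 10, and astrocytes and the oligodendrocyte lineage 7 of 8 each. Over all 9179 protein-coding loci with a distal region, a promoter was called at E80 in 75.5% and at E60 in 77.5%.

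Distal open regions include enhancers, which bind transcription factors at short DNA words. AP-1, a dimer of FOS and JUN family proteins, binds TGAGTCA, is induced by growth factors and other stimuli, and takes part in opening enhancers in many cell types. TEAD factors bind ACATTCC and are the DNA-binding partners of YAP and TAZ, which respond to cell contact and stiffness through the Hippo pathway. LHX, DLX and related homeobox factors bind TAATTA, neurogenic bHLH factors bind CAGCTG, and nuclear factor I proteins bind TTGGCA; all are known regulators of cortical development.

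Of 35 motifs searched, AP-1 differed most in its share between E80-alone and E60-alone regions. To show it in place, short stretches around the centres of 6 E80-alone regions are given. They comprise the region with the most central AP-1 match at each of 5 of the 7 loci with the most such regions and a region near GTF2IRD1 with 4 matches, and are followed by an E60-alone region of MSI2 with a homeobox match. All are plus-strand sequence of the RefSeq genome Mmul_10 (rheMac10), and capitals mark the AP-1 word on either strand (TGAGTCA or TGACTCA), or TAATTA in the MSI2 region.
CAMTA1, E80-alone, chr1:217648670-217648790: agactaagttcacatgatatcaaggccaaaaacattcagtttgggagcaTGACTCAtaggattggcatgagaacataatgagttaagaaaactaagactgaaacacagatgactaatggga
KCNMA1, E80-alone, chr9:60277456-60277576: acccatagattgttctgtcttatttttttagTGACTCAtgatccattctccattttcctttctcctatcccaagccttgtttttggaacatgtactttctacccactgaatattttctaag
DLG2, E80-alone, chr14:77114491-77114611: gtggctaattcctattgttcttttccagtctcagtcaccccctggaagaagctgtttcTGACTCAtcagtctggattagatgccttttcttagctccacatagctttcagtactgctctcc
AOPEP, E80-alone, chr15:112883359-112883479: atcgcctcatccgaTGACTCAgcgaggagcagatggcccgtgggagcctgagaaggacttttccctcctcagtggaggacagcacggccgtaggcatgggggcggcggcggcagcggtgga
NPAS3, E80-alone, chr7:95277921-95278041: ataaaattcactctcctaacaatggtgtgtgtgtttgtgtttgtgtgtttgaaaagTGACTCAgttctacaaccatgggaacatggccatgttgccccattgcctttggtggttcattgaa
Near GTF2IRD1, E80-alone, chr3:46818146-46818266: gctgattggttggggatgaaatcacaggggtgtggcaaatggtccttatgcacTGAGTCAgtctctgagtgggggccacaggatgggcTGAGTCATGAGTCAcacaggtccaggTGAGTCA
MSI2, E60-alone, chr16:39439136-39439256: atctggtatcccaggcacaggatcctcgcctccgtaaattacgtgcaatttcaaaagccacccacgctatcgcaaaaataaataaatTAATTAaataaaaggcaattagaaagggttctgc

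In the DLG2 and NPAS3 sequences the AP-1 word lay 1 bp from the centre of the region, and in the CAMTA1 sequence 8 bp. In the KCNMA1 region it lay 26 bp and in the AOPEP region 43 bp away. These 5 regions were 197 to 314 bp wide and lay in introns, 24257 to 224428 bp from the nearest start. The region near GTF2IRD1 was 221 bp wide, lay 1487 bp from the start of that gene, and held a pair of AP-1 words end to end.

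In the central window, the 150 bp to each side of the centre read on both strands, 3866 of the 8840 E80-alone regions held an AP-1 word, or 43.7% (exact Clopper-Pearson 95% interval 42.7 to 44.8). The share was 11.5% (10.9 to 12.2) in E60-alone regions, a difference of 32.2 percentage points (Newcombe 95% interval 31.0 to 33.4). Regions called at E60 and E80 alone held it in 32.8%, and regions called at all 4 stages in 19.9%. These intervals cover counting error over regions, which are not independent replicates of a stage. Windows of equal length 2000 bp to either side held the word in 5.23% of cases around E80-alone regions and in 5.31% around E60-alone regions, so the neighbourhoods differed little.

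All other sets of stages stood lower, with or without an E85 call. The 682 regions called at E80 and E85 alone held AP-1 in 16.9%, and the 806 called at E85 alone in 7.94%. Regions called at E60, E80 and E85 held it in 20.1% of 6196. Among all 15 sets of stages that occurred, the 8 with an E85 call had shares from 4% to 20.1%, below both E80-alone regions and regions called at E60 and E80 alone. The remaining sets without an E85 call were below both as well. Beside E60-alone regions, these were E50 alone (6.06%), E50 and E60 (4.84%), E50 and E80 (16.7%), and E50, E60 and E80 (16.5%).

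**Figure D1:**
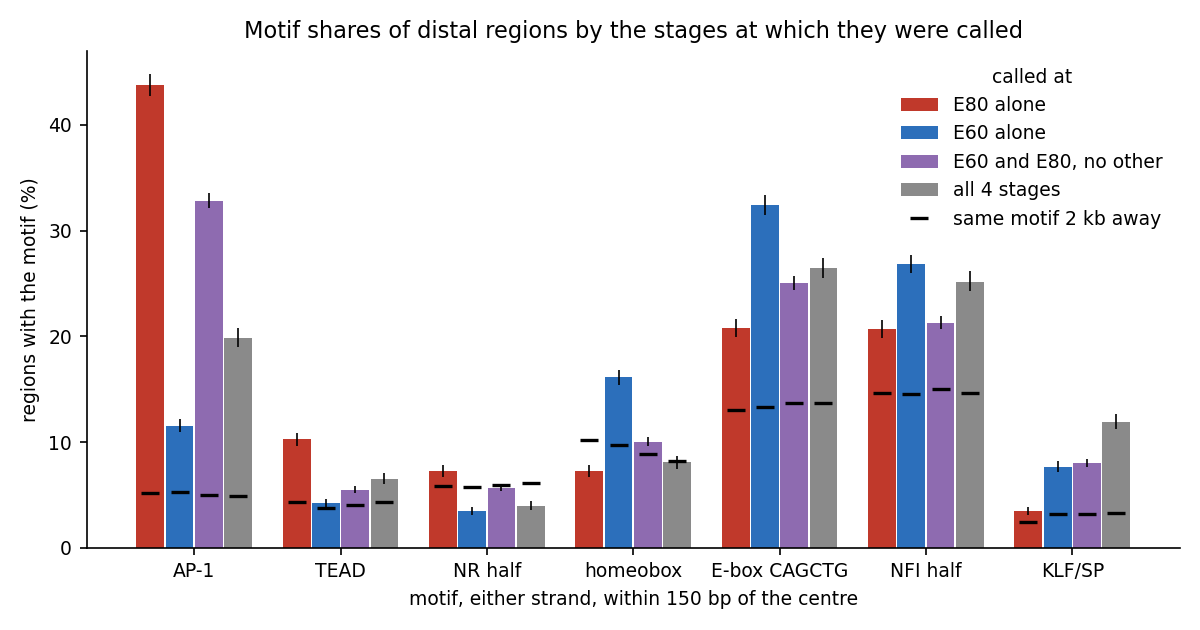
Share of distal regions that held each motif, read on both strands over the 150 bp to each side of the centre (percent), for 4 classes of region. Bars are shares with exact 95% intervals, and black dashes give the share in windows 2 kb away; AP-1 stands at 43.7% in E80-alone regions and at 11.5% in E60-alone regions, while the homeobox word stands at 7.27% and 16.1%.

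AP-1 words clustered at the centres of E80-alone regions. Of 4393 AP-1 words in the central windows, 38.3% lay within 25 bp of the centre (exact 95% interval 36.9 to 39.8), against 28.4% (25.9 to 31.0) in E60-alone regions and 22% in regions called at all 4 stages. An even spread would give 17.3%. Median widths of these classes were 272, 338 and 743 bp. Neither these shares nor those of TEAD words below were matched for width. The median distance was 35 bp in E80-alone regions and 46 bp in E60-alone regions. In the central 20 bp there were 3.97 AP-1 words per kb of sequence in E80-alone regions, against 0.652 in E60-alone regions. Of all E80-alone regions, 56.3% held no AP-1 word, 38.2% held 1, 5.19% held 2 and 0.351% held 3 or more.

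**Figure D2:**
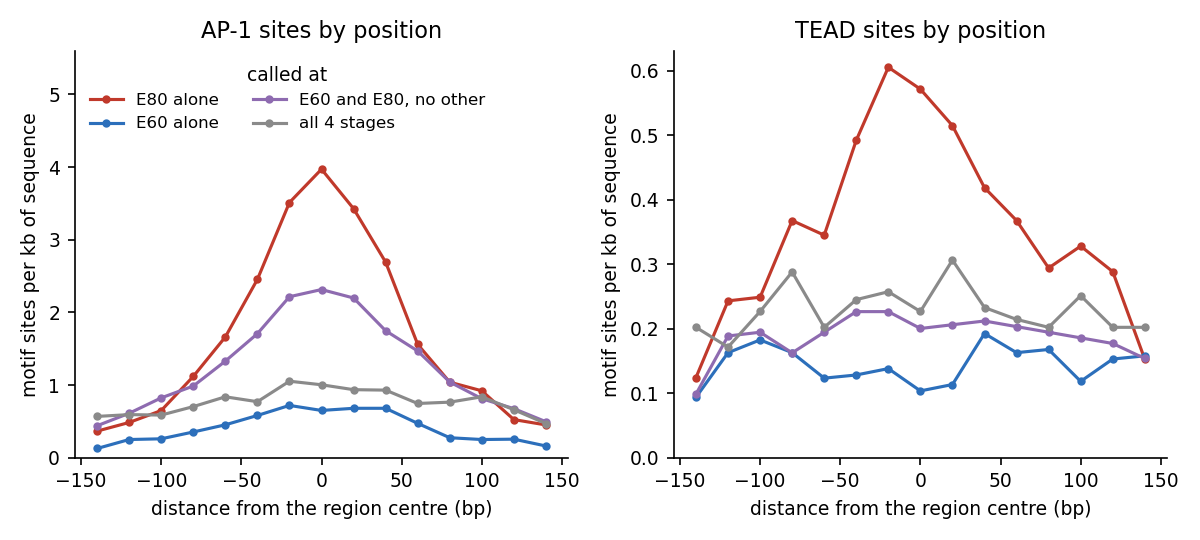
Density of AP-1 words (left) and TEAD words (right) per kb of sequence against the distance from the region centre in bp, in bins of 20 bp, for 4 classes of region. In E80-alone regions both words peak near the centre, AP-1 at 3.97 per kb; in E60-alone regions TEAD words show no central peak.

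TEAD words were also more frequent in E80-alone regions, at 10.2% (exact 95% interval 9.62 to 10.9) against 4.21% (3.82 to 4.62) in E60-alone regions, a difference of 6.04 points (5.30 to 6.79). The windows 2000 bp away held them in 4.32% and 3.77% of cases for these 2 classes. In E80-alone regions 27.5% of TEAD words lay within 25 bp of the centre (24.7 to 30.5), and 14.2% did so in E60-alone regions (11 to 17.8). AP-1 and TEAD words mostly stood in different regions. TEAD was found in 7.55% of E80-alone regions with AP-1 (6.74 to 8.43) and in 12.3% of those without it (11.4 to 13.3). Where both were present, in 292 regions, the nearest pair lay a median of 64.5 bp apart. In regions called at E80 and E85 alone the TEAD word stood at 12.9%, and the difference, E80-alone minus this class, was -2.65 points (Newcombe interval -5.45 to -0.255).

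Words of the cortical factors were less frequent in E80-alone than in E60-alone regions. The homeobox word was found in 7.27% of E80-alone regions (6.74 to 7.84) and 16.1% of E60-alone regions (15.4 to 16.8). Around E80-alone regions 10.2% of the windows 2000 bp away held it, more than the regions themselves, while around E60-alone regions 9.68% did. CAGCTG was found in 20.8% of E80-alone regions (19.9 to 21.6) and 32.4% of E60-alone regions (31.5 to 33.3). TTGGCA was found in 20.7% (19.8 to 21.5) and 26.9% (26.0 to 27.7). The homeobox share in E80-alone regions was nearer to that of other classes, which was 10.1% in regions called at E60 and E80 alone, 8.08% at all 4 stages, 8.36% at E80 and E85 alone and 8.31% at E85 alone, so that E60-alone regions stood highest. TTGGCA was found in 21.3% of regions called at E60 and E80 alone, and the interval of the difference from E80-alone regions, -1.66 to 0.426 points, included 0. CAGCTG stood at 25% there and at 26.4% in regions called at all 4 stages. Both CAGCTG and TTGGCA were more frequent in E80-alone regions than in windows 2000 bp away, which held them in 13.0% and 14.6% of cases.

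Among 35 motifs scanned, the ratio of E80-alone to E60-alone shares was highest for the extended site of MAF and BACH dimers, which is an AP-1 word with TGC before it (1.57% against 0.405%, ratio 3.88). It was 3.79 for AP-1, 2.44 for TEAD, 2.29 for SRF, which rests on 4 and 2 regions, and 2.07 for AAGGTCA. The last of these, a site of nuclear receptors, was found in 7.23% of E80-alone regions and 3.50% of E60-alone regions, with 5.85% and 5.74% in their windows 2000 bp away. The lowest ratios were those of RFX factors, which act on genes of cilia (0.305% against 1.46%), of POU factors, at ATGCAAAT (2.15% against 4.99%), of the homeobox word, and of KLF and SP factors, at GGGCGGG (3.46% against 7.64%). The C/EBP word TTGCGCAA was next, in 2 and 5 regions. CTCF sites were found in 1.35% of E80-alone regions and 2.02% of E60-alone regions. Within the E80-alone class they stood at 0.285% where AP-1 was present and at 2.17% where it was absent. The same direction was seen in E60-alone regions (0.684% and 2.20%) and in regions called at E60 and E80 alone (0.955% and 5.25%). Regions called at all 4 stages had 0.986% and 3.53%.

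Read backwards without complementing, AP-1 gives ACTGAGT, a word with the same letters that was used as a control. It was found in 9.26% of E80-alone regions and 5.02% of E60-alone regions. It overlaps AP-1, since ACTGAGTCA holds both, and with intact AP-1 words masked the shares were 6.39% and 4.31%. The reversed TEAD word CCTTACA was found in 2.88% and 2.45%, and the reversed homeobox word ATTAAT, which still holds TAAT and ATTA, in 5.95% and 9.48%.

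Words close to AP-1 were more frequent as well. With intact AP-1 words masked, each of the 19 words that differ from AP-1 by 1 base was counted, and every one was more frequent in E80-alone than in E60-alone regions, at ratios from 1.13 to 3.13. Ratios passed 2 for 3 of them. TTAGTCA was found in 11.6% against 3.70% of regions, TGAGTAA in 9.79% against 4.12% and TGAATCA in 14.6% against 6.17%. Counting these 3 with the intact word, 65.5% of E80-alone regions held one, against 23% of E60-alone regions, 48.3% of regions called at E60 and E80 alone and 30.7% of those called at all 4 stages. These 3 were picked by the same contrast, so the combined shares describe it and add no support to it. The near words alone accounted for 21.8% of E80-alone regions and 11.4% of E60-alone regions.

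A count of all 7-letter words present in at least 1% of E80-alone regions led to the same sequences. The 10 words with the highest ratio to E60-alone regions all overlapped AP-1 or one of its near words. TGACTCA, the complement of AP-1, came first, then GACTCAC (17.6% against 5.24%), GAGTCAC (18.6% against 5.92%), TGACTAA (11.6% against 3.70%) and ATGACTC (18.4% against 6.33%). ATGAGTC stood in 16.7% against 5.82%, CTGAGTC in 19% against 7%, ATGACTA in 7.34% against 2.77%, GACTAAC in 3.20% against 1.21% and AGTCATG in 10.7% against 4.18%. With AP-1 masked, TEAD words entered the first 10. ACATTCC was found in 10.2% and 4.2% of E80-alone and E60-alone regions, and GCATTCC in 8.99% and 3.78%. At the low end, words were taken that stood in at least 1% of E60-alone regions, and those with the lowest ratio were rich in CpG: CGCCGCG was found in 0.271% of E80-alone regions and 1.65% of E60-alone regions. The words were picked by this contrast, so their ratios describe it and add no support to it.

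E80-alone regions were narrower and poorer in CpG than E60-alone regions. Their median width was 272 bp (quartiles 226 and 359), against 338 bp (255 and 490) for E60-alone regions, 400 bp for regions called at E60 and E80 alone and 743 bp for regions called at all 4 stages. The difference from E60-alone regions, -66 bp, was -27 bp without regions that hold peaks lifted from other sets. Median GC content of the central window was 47.2% against 48.5% in E60-alone regions. E80-alone windows held 4.00 CpG dinucleotides on average and E60-alone windows 6.02. Low CpG was not particular to this class. Windows of regions called at E80 and E85 alone held 4.05 on average and those of E85-alone regions 4.48, with median GC contents of 47.8% and 47.2%. Introns held 50.8% of E80-alone regions and intergenic sequence 43.5%. Exons held 5.69%, against 8.14% of E60-alone regions (difference -2.45 points, Newcombe interval -3.17 to -1.73). The median distance to the nearest start was 29146 bp, against 29696 bp for E60-alone regions, a difference of -550 bp that turned to 40 bp without regions that hold lifted peaks. Lifted peaks, from sets that the labels do not define, were merged into 27.7% of E80-alone regions (exact interval 26.7 to 28.6), 49.5% of E60-alone regions and 84.5% of those called at all 4 stages.

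The higher AP-1 share was seen at every level of these features. In windows under 35% GC it was 54.5% in E80-alone regions and 19.2% in E60-alone regions, and at 60% GC or more it was 28.2% and 5.33%. Among regions of up to 226 bp it was 46.5% and 15.2%, and among regions of 360 bp or more it was 34.4% and 7.63%. With a lifted peak it was 33.3% and 7.16%, and without one 47.7% and 15.8%. In intergenic sequence it was 46.2% and 11.6%, in introns 42.8% and 11.8%, and in exons 33.0% and 9.22%. By autosome, the E80-alone share ranged from 36.8% on chromosome 19 to 48.6% on chromosome 11, and the highest E60-alone share was 13.9%, on chromosome 6.

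**Figure D3:**
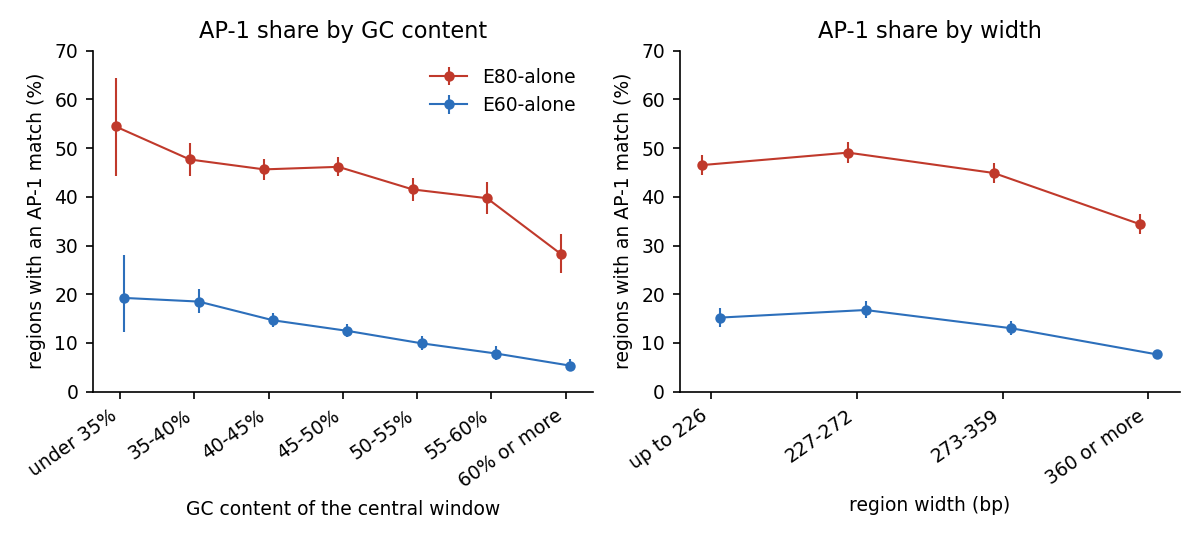
Share of regions with an AP-1 match (percent) by GC content of the central window (left) and by region width in bp, at the quartiles of the E80-alone class (right). Points are shares with exact 95% intervals; E80-alone regions lie above E60-alone regions in all bins, at 54.5% and 19.2% in the lowest GC bin.

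Few windows consisted mainly of exact high-copy words, a measure that misses diverged repeats, and the share in repeated DNA was not measured. In 284 E80-alone regions (3.21%, exact interval 2.86 to 3.6) at least 50% of the central window was covered by 16-base words with 100 or more copies in the genome, against 1.03% of E60-alone regions. These windows held AP-1 in 60.2% of E80-alone regions, and the other E80-alone windows in 43.2%. In E60-alone regions the shares were 19.2% and 11.5%. The AP-1 word with 4 bases on each side that recurred most often was GCAGTGAGTCATGAT, in 17 E80-alone regions, 1 E60-alone region and 16 regions called at E60 and E80 alone. TGGGTGAGTCAGTGA followed, in 14 E80-alone regions and 1 E60-alone region. AP-1 words preceded by GGC and another base and followed by C occurred in 117 E80-alone regions, or 3.03% of those with AP-1. Of these 117 windows, 88.9% held a high-copy word over any part of their length, as did 87.5% of the 24 such E60-alone windows.

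The E80-alone regions were spread widely over genes. Of 9179 protein-coding loci (gene body and 5000 bp upstream) with a distal region, 3231 held at least 1 E80-alone region (35.2%), 958 held 2 or more and 6 held 10 or more. More E80-alone than E60-alone regions were found at 2293 loci (25%), and fewer at 2416 (26.3%). The 20 loci with the most E80-alone regions were long, with a median of 826 kb against 46.6 kb for all loci. They held 184 E80-alone regions, 29.1% of their distal regions, where all loci together had 16%. The loci were picked for this count, which is a description. AP-1 was present in 70 of the 184, or 38%, against 43.7% of all E80-alone regions.

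Genes of ion channels and the synapse were among these loci. CAMTA1, a calmodulin-binding transcription activator gene on chromosome 1 from 216747437 to 217726690, held 16 E80-alone and 2 E60-alone regions of 44 distal regions, and 6 of the 16 held AP-1. KCNMA1, the gene of a large-conductance potassium channel opened by calcium, held 13 and 4 of 43. DLGAP2 and DLG2, genes of postsynaptic scaffold proteins, held 12 and 2 of 27, and 11 and 5 of 37. CACNA1C, an L-type calcium channel gene, held 8 and 6 of 27, and ASIC2, an acid-sensing channel gene, 7 and 1 of 20. The neighbouring cell adhesion genes NTM and OPCML held 8 and 6, and 8 and 11. OPCML was thus one of 3 among the 20 with more E60-alone regions, with AUTS2 (8 and 9) and CMIP (7 and 12). AP-1 was present in 4 of the 13 E80-alone regions at KCNMA1, 5 of 12 at DLGAP2 and 4 of 11 at DLG2. It was present in 2 of 8 at CACNA1C, 1 of 7 at ASIC2, 3 of 8 at NTM and 2 of 8 at OPCML. AUTS2 had it in 4 of 8 and CMIP in 4 of 7.

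Other loci held genes of varied function. PAPPA, whose protease frees insulin-like growth factors from a binding protein, held 8 E80-alone and 1 E60-alone region of 11, and 6 of the 8 held AP-1. PTPRE, a receptor-type tyrosine phosphatase gene, held 8 and 0 of 15, none with AP-1. AOPEP, an aminopeptidase gene, held 10 and 0 of 30. DPF3, which encodes a subunit of BAF chromatin remodelling complexes, held 9 and 1 of 24. LPP, which encodes a LIM protein of focal adhesions, held 8 and 4 of 25, with AP-1 in 6 of the 8. NPAS3, a bHLH-PAS transcription factor gene, held 10 and 6 of 36, and ATXN1 9 and 4 of 32, also with AP-1 in 6 each. KAZN and WWOX held 8 each, against 5 and 6 E60-alone regions, with AP-1 in 3 of the 8 at each. AP-1 was present in 2 of the 10 at AOPEP and 3 of the 9 at DPF3.

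**Figure D4:**
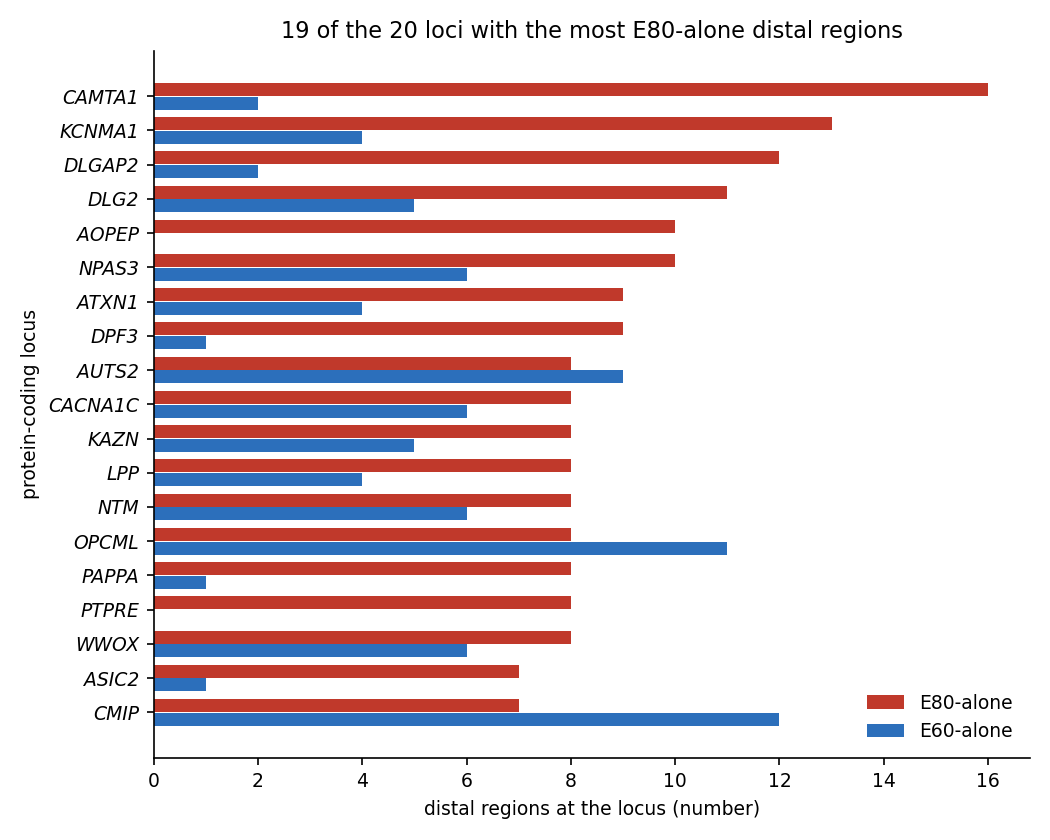
Number of E80-alone and E60-alone distal regions at 19 of the 20 protein-coding loci with the most E80-alone ones. CAMTA1 leads with 16 and 2, AOPEP and PTPRE have no E60-alone region, and AUTS2, OPCML and CMIP have more E60-alone than E80-alone regions.

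The promoters of these genes were called at E60 as well. All 20 had a promoter region called at E60 and at E80, 15 at E85 and 11 at E50. Over the 3231 loci with an E80-alone distal region, a promoter was called at E80 and not E60 in 0.990% (exact interval 0.678 to 1.40) and at E60 and not E80 in 1.95%. For all 9179 loci these shares were 1.08% and 3.08%.

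At extracellular matrix and cell adhesion genes E80-alone regions outnumbered E60-alone ones. At extracellular matrix loci 34 distal regions were E80-alone, or 28.1% of all (exact interval 20.3 to 37, against 16% for all loci), and 13 were E60-alone. The median over its 19 loci was 20%, against 0% for all loci. A locus of the list held a median of 5 distal regions, against 2 for all loci, so these medians are not like for like. At least 1 E80-alone region was held by 63.2% of the list's loci and 35.2% of all loci. This measure also depends on the number of distal regions per locus. It was 57.1% for axon guidance loci, which held a median of 10 and had 11.7% of distal regions E80-alone. Of the 19 loci, 10 had more E80-alone regions and 2 had more E60-alone ones. PAPPA held 8 of the 34. Regions of a locus are not independent, and the counted calls define the class. The intervals given for gene lists are therefore descriptions and not tests. COL4A2, a basement membrane collagen gene, held 5 E80-alone and 4 E60-alone regions, and COL5A1, a fibrillar collagen gene, held 4 and 0. Named after its values were seen, COL5A2 held 4 distal regions, all of them E80-alone.

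Integrin and focal adhesion loci had 35 E80-alone and 24 E60-alone regions of 195 (18.0% E80-alone), and AP-1 was present in 21 of the 35. After LPP came ITGB5, the integrin beta-5 subunit gene, with 5 and 2, and TNS3, a tensin gene, with 4 and 3. The exact interval of the 18.0% included the 16% of all loci. Over all E80-alone regions AP-1 was present in 43.7%. By list, AP-1 was present in 10 of 34 at extracellular matrix loci and 14 of 34 at postsynaptic scaffold loci. It was present in 13 of 37 at potassium channel loci and 23 of 38 at axon guidance loci.

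Postsynaptic scaffold loci had 34 and 26 of 158 (21.5%), and potassium channel loci 37 and 31 of 188 (19.7%). Their exact intervals, 15.4 to 28.8 and 14.3 to 26.1, included the 16% of all loci. In the first list DLGAP2 and DLG2 held 23 of the 34. KCNMA1 held 13 of the 37, and KCNH1, a voltage-gated channel gene, had 5 and 0 of 11, with AP-1 in 4 of the 5. KCNN3 had 3 and 5.

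Over all loci 16% of distal regions were E80-alone and 18.6% E60-alone. Pan-neuronal loci had 13 E80-alone and 48 E60-alone regions of 139 (9.35% and 34.5%), with RBFOX3 at 4 and 5, GAP43, a growth cone gene, at 3 and 0, and MYT1L at 3 and 7. Deep-layer neuron loci had 3 and 18 of 58, upper-layer neuron loci 8 and 20 of 62, and interneuron loci 4 and 15 of 35. Axon guidance loci had 38 and 74 of 326 (11.7% and 22.7%), with SLIT3 at 6 and 6, UNC5D, which is also in the upper-layer list, at 5 and 2, and EPHB2 at 4 and 4. The exact intervals of the E80-alone share lay below 16% for the pan-neuronal, deep-layer and axon guidance lists, and included it for the upper-layer (5.74 to 23.9) and interneuron (3.20 to 26.7) lists. They treat regions of a locus as independent, so they describe the counts and do not test the lists.

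Among progenitor and glial lists, the exact interval of the E80-alone share included the 16% of all loci for all but the oligodendrocyte lineage. Radial glia loci had 8 and 22 of 88 (interval 4.01 to 17.1). VIM, an intermediate filament gene of radial glia, had 2 distal regions, both E80-alone, and CDH2 and NOTCH2 had 2 and 2 each. Outer radial glia loci had 11 and 17 of 83 (6.81 to 22.5), of which 5 and 2 were at ITGB5, PALLD had 2 and 1 and TNC 2 and 0. Intermediate progenitor loci had 1 and 3 of 8, astrocyte loci 3 and 0 of 28 (at ALDH1L1, CD44 and SPARCL1) and oligodendrocyte lineage loci 2 and 12 of 46 (0.531 to 14.8).

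Of the lists that mark cells from outside the neural lineage, the endothelium list had 8 and 7 of 27 (29.6%, exact interval 13.8 to 50.2, which includes 16%), at VWF (3 and 1), FLT1 (2 and 3), ERG (1 and 0) and others. The mesenchyme and mural cell list had 0 and 2 of 18, and the microglia list 0 and 0 of 5. At endothelial loci 20 distal regions were called at E80 and 19 at E60. The part of such cells in the E80-alone regions was not tested.

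At the loci of AP-1, Hippo and growth factor genes the E80-alone shares were near the 16% of all loci or below it, with intervals that included it. AP-1 subunit loci had 6 and 7 of 37 (16.2%), with BACH2 at 3 and 3, FOSL1 at 1 and 0 and FOSL2 at 1 and 1. Hippo and TEAD loci had 8 and 13 of 76 (10.5%), including WWTR1 (TAZ) and YAP1 at 2 and 1 each. EGF and FGF signalling loci had 7 and 16 of 81, with ERBB4 at 2 and 2 and TGFA at 2 and 1. TGF-beta signalling loci had 13 and 16 of 87, with SMAD3 at 4 and 1. Lists share some genes and were chosen with earlier results of these data known, so their counts and intervals describe the table.

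**Figure D5:**
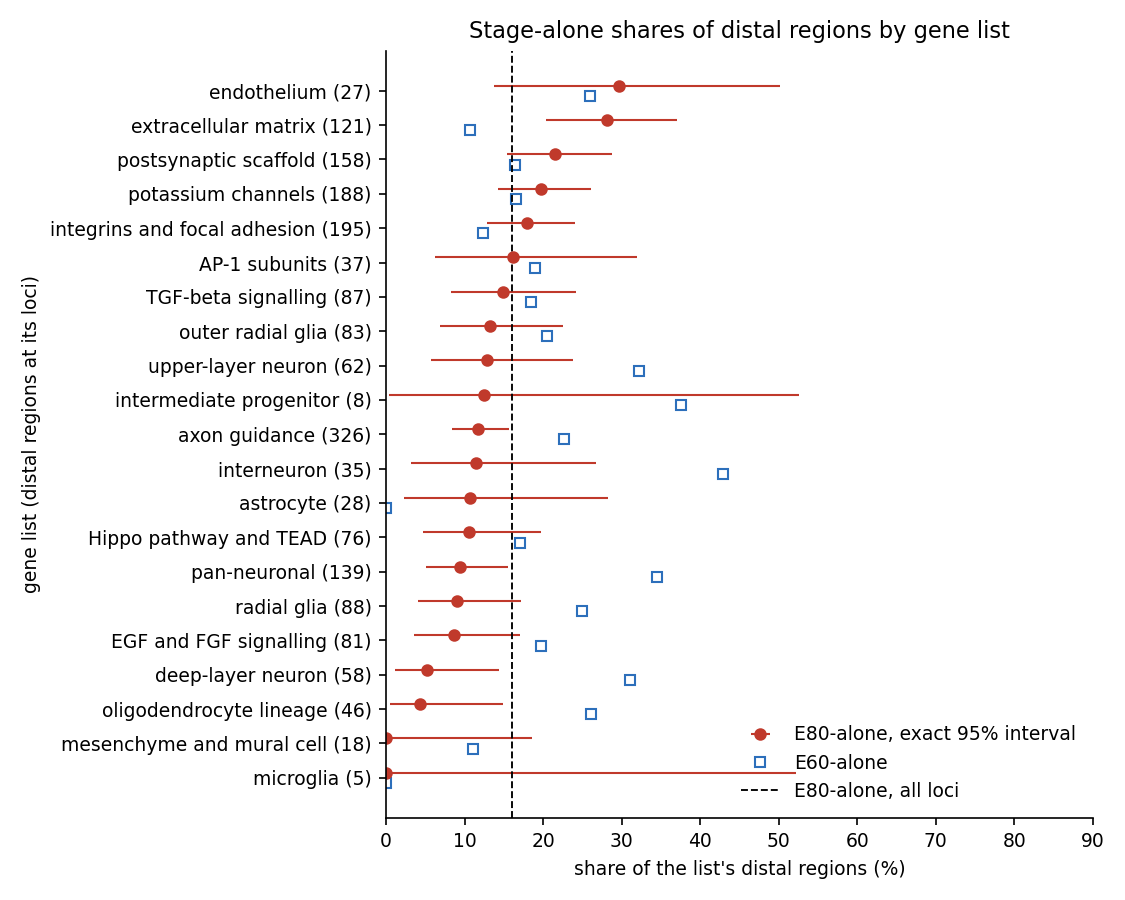
Share of the distal regions at the loci of 21 lists (percent) that were E80-alone (red points with exact 95% intervals) and E60-alone (blue squares), with the number of distal regions in brackets. The dashed line is the 16% of all loci; the extracellular matrix list, at 28.1%, has an interval that lies above it, and the pan-neuronal list, at 9.35%, one that lies below. Intervals treat regions of a locus as independent and are descriptions.

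E80-alone regions seldom stood side by side. The median distance to the nearest region of the same class was 66898 bp, against 46852 bp for E60-alone regions, and 10641 bp to the nearest stage region of any other class. For E60-alone regions the last distance was 9272 bp. The classes differ in size, with 8840 and 10125 regions, and neither the distances nor the runs below were adjusted for it. Runs of at least 3 with no gap over 12.5 kb numbered 74 and held 2.74% of E80-alone regions, against 198 runs with 6.32% of E60-alone regions. The longest had 5 E80-alone regions among 10 stage regions on chromosome 10, from 5412445 to 5433012, with a gene without an assigned name as the nearest protein-coding one.

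The tightest runs held 4 regions each. At SPP1, which encodes the secreted matrix protein osteopontin, 4 regions of 415 to 570 bp lay on chromosome 5 from 86370707 to 86376040, 2881 to 7800 bp from the start, and no other stage region lay among them. Beyond the end of PDLIM4, a gene of an actin-associated LIM protein, 4 lay within 3548 bp on chromosome 6, from 129728941 to 129732488. Past the end of ANXA2, an annexin gene, 4 lay on chromosome 7 from 36795543 to 36801595, also with no other stage region among them. At PAPPA, 4 lay on chromosome 15 from 26421436 to 26435509, 3 with AP-1. AP-1 was absent from the runs at SPP1 and PDLIM4, and present in 1 of 4 regions at ANXA2. The other runs lay 91753 bp from CDC42EP3, the nearest protein-coding gene, with AP-1 in 3 of 4, and at TOM1L2, ACTN4, DPF3 and SHISA9, with AP-1 in none, 1, none and 1 of 4.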

How the data were processed

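Omni-ATAC libraries of rhesus cortex cultures were processed by the authors with cutadapt 4.4, Bowtie2 2.5.1 and SAMtools 1.15 on rheMac10, per the submitters' processing notes. The peak caller and its threshold, the merging rule, any Tn5 offset and any pooling were not stated in any source used here. The deposited table has no header. Its positions and peak names, the only values used, were taken as the authors deposited them, with stage peaks tagged nativeFiltered. Another 8 columns of values carry no names, could not be matched to libraries and were not used, so depth per library is unknown here. The planned repeat share could not be computed, as the reference is not soft-masked. A copy count of 16-base words replaced it, chosen after seeing the data.

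Starts and gene models were those of NCBI for Mmul_10. A region's class is its set of stages. Motifs were scanned on both strands within 150 bp of the region's centre. Beside the motifs spelled in the report, the scan took CRE (TGACGTCA), RUNX (TGTGGTT), C/EBP-ATF (TTGCATCA), STAT (TTCCNGGAA), NFkB (GGGANTTCC), ETS (CCGGAAGT), SOX (ACAAAGG), bHLH E-boxes of the form CAGATG, MYC-type E-boxes of the form CACGTG, TCF/LEF (ATCAAAG), FOX factors (TGTTTAC), MEIS (TGACAG), the word AGATAA for zinc finger proteins of the GATA family, EGR (GCGTGGGCG), REST (TTCAGCACC), and, by name alone, CTCF, p53, MEF2, NR2F, full NFI sites, RFX and SRF. The scanner, tested on simulated data, found all planted sites of the 35 motifs. Shares have exact Clopper-Pearson and differences Newcombe 95% intervals, and no p-value was computed. Coordinates count from 1. A locus is the gene body and 5000 bp upstream.

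Named are the 20 loci with the most E80-alone regions, 3 genes per list, the 10 tightest runs, the 5 motifs with the largest ratio each way, and the 10 leading words, unless stated otherwise. The E60-alone sequence planned for GSE1 held no match in the stretch taken and was left out, as was a region on chromosome 1 with 5 AP-1 words, of which 1 fell in its stretch. The regions, motifs and 22 gene lists were chosen with earlier results of these data known, and some genes, 1 list and 1 sequence that these rules name are not reported here. TLE4 and AMOTL2 were not found in the annotation. Python 3.11.15, pandas 2.3.3, NumPy 2.4.6, SciPy 1.17.1, pysam 0.24.0, statsmodels 0.14.6, numba 0.67.0, matplotlib 3.10.9 and samtools 1.23.1 were used.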

Additional observations from a re-analysis of the deposited data

How the results depend on the processing

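Over 11 results, 61 of 79 alternatives kept the direction and moved the value by less than its interval (a count, by less than 1.5 times), 17 moved it further and 1 turned it round. Differences are E80-alone minus E60-alone, in percentage points. With windows of 50 bp each side they were 22.7 for AP-1 (32.2 as reported), 3.61 for TEAD (6.04), -4.10 for the homeobox word (-8.84), -6.05 for CAGCTG (-11.7) and -3.18 for TTGGCA (-6.21), and with 100 bp 30.1 for AP-1, -7.17 for the homeobox word and -9.71 for CAGCTG. The AP-1 difference was 30.5 with E85 calls ignored and 29.7 with E50 and E85 calls ignored. The homeobox difference was -9.87 without regions that hold lifted peaks, -7.92 in regions over 200 and up to 400 bp wide, -9.90 beyond 10000 bp of a start and -10.4 with E60-alone regions weighted to the same GC content, which also gave -7.43 for TTGGCA. The difference in median width, -66 bp, was -61 bp up to 1000 bp and -27 bp without lifted peaks. The difference in median distance to a start, -550 bp, was 40 bp without lifted peaks; the cause was not tested. Without high-copy words, an alternative added after seeing the data, the AP-1 difference was 31.5. The repeat share and its soft-masking alternative were not run. No paired analysis was possible because the peak codes name stages, not libraries, and no library could be left out for the same reason. Depth per library is unknown here, and the smaller E50 and E85 sets limit what their missing calls show.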

Other observations

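Among the loci ranked after the first 20, and named after their values were seen, ANO4, a gene of the anoctamin family, held 6 E80-alone and 0 E60-alone regions of 7 distal regions. TEAD words were present in 4 of the 6 and AP-1 in 1. GALNT17, a glycosyltransferase gene, held 7 and 0 of 14. PDE4D, which encodes a cyclic AMP phosphodiesterase, held 7 and 1 of 23. The neurexin gene NRXN3 held 7 and 5 of 24, with AP-1 in 4 of the 7, and ANKS1B 6 and 3 of 20, with AP-1 in 5 of the 6.

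The neuronal splicing regulator gene CELF4 held 0 E80-alone and 13 E60-alone regions of 25. MSI2, an RNA-binding protein gene of progenitors, held 4 and 17 of 64, and GSE1 held 5 and 15 of 58, with AP-1 in 4 of the 5 and in 1 of the 15.

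By chromosome, E80-alone regions made up 11.1% (chromosome 19) to 18.5% (chromosome 8) of the distal regions, and E60-alone regions 15.1% (chromosome 19) to 23.8% (chromosome 18). Sequence like the mitochondrial genome was found in 15 E80-alone regions (0.170%), in no E60-alone region and in 22 regions called at all 4 stages (0.270%). Among all distal regions outside the E80-alone class the share was 0.100%.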
